A study of Mus musculus with 7 samples.

Results

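The genes described here are 35 protein-coding genes of the cardiac contractile apparatus and of its calcium supply, of 21774 protein-coding genes in the RefSeq annotation of GRCm38. They were taken by name and not by any value in these lists, as 10 genes of the thin filament, 7 of the thick filament, 14 of the Z-disc, M-band and sarcomere assembly, and 4 of calcium handling. Accessibility was read from ATAC-seq peaks, places where a transposase cut DNA more often than in the surrounding chromatin. Promoter windows ran from 1000 bp upstream to 100 bp downstream of each RefSeq transcription start site (TSS), and distal regions were peaks outside all promoter windows and within 20 kb of a gene body.

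Cells of the dissected second heart field (SHF) of E9.5 mouse embryos were sorted by flow cytometry from 2 lines. In the Hoxb1-GFP line the reporter lights up posterior SHF progenitors, which express Hoxb1, and GFP+ cells (replicates 3 and 4) and GFP- cells (replicates 1 and 2) were collected. In the Mef2c-Cre;Rosa tdT line, Cre under an SHF-restricted Mef2c element marks progenitors and their descendants with Tomato, and Tomato+ cells (replicates 6 and 8) and Tomato- cells (replicate 7 alone) were collected. The GFP reporter is an allele of Hoxb1 that the study's methods name as Hoxb1-, and GFP+ and GFP- cells both come from embryos with it, in a number of copies not given in the sources used here. No treatment is named for these libraries. Embryos of a genotype were pooled. GFP+ and Tomato+ cells stem from different lines, and what belongs to the line and what to the cells cannot be told apart. For Tomato+ replicate 6, MACS2 was run under a name that includes YFP, while the sample labels give the Tomato line, and the labels were followed.

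A sarcomere is built from thin filaments of actin, tropomyosin and the troponin complex, which slide along thick filaments of myosin between Z-discs. Contraction starts when calcium, released from the sarcoplasmic reticulum by the ryanodine receptor Ryr2, binds troponin C, and it ends when the pump Atp2a2, restrained by phospholamban (Pln), takes calcium back. SHF progenitors lie beside the beating heart tube, proliferate and switch on these genes as they enter its poles and differentiate into myocardium.

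The 7 peak lists held 187914 to 291287 peaks, of which 64306 to 77746 had a -log10 q of at least 2, the limit used below for a strong peak. They rested on 52.3 to 93.1 M (mega) tags, fewest in Tomato+ replicate 6 and most in Tomato- replicate 7. Strong promoter peaks were found at 7 to 10 of 11 SHF and pharyngeal marker genes, 2 to 5 of 8 endothelial, 1 to 2 of 6 blood, 4 to 6 of 6 neural, 1 to 3 of 6 foregut endoderm, 0 to 1 of 4 skeletal muscle and 2 to 4 of 4 smooth muscle marker genes. These lists have no part in the choice of the genes, and an open promoter does not show that a gene is expressed. Tomato+ replicate 6 stood apart from the other libraries at the sarcomere genes, and results are given with and without it.

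The promoters fell into those open in every library, those open in some and those open in none. The sequences of 6 of them are shown because they span this range. They run from 250 bases before the start site to 50 after it, 5′ to 3′ on the gene's own strand, from RefSeq GRCm38.p6. Capitals mark each match to a searched motif, named in the paragraph on sequence content. Ryr2 (chr13:12106896-12107195, minus strand) was open in every library, Actc1 (chr2:114052826-114053125, minus strand) had strong peaks in the 4 sorted-positive libraries, Tnnt2 (chr1:135836084-135836383, plus strand), Acta2 (chr19:34255324-34255623, minus strand) and Lmod2 (chr6:24597521-24597820, plus strand) had them in Tomato+ replicate 6 and in at most 1 other library, and Pln (chr10:53337436-53337735, plus strand) had no peak anywhere.
Ryr2: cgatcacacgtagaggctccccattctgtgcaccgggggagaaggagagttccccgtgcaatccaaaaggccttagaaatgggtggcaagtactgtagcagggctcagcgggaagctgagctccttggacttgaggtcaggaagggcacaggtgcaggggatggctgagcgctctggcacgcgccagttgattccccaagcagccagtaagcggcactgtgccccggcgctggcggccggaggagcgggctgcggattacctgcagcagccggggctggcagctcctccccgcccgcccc
Actc1: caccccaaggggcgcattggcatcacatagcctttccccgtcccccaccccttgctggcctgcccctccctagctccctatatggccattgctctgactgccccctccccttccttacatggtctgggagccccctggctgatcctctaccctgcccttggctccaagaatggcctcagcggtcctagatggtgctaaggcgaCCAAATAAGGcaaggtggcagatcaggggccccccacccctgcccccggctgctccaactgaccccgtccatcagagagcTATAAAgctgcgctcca
Tnnt2: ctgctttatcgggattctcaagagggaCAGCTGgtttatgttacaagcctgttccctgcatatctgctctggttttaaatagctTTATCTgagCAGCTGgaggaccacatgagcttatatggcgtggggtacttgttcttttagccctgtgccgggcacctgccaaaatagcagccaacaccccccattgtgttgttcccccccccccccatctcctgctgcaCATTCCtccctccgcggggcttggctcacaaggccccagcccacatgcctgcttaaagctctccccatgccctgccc
Acta2: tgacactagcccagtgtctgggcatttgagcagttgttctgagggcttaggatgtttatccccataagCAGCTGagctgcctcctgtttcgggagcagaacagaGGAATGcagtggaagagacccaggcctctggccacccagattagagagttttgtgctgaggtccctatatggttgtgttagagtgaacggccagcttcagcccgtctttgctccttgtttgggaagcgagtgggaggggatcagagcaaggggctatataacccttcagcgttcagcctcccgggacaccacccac
Lmod2: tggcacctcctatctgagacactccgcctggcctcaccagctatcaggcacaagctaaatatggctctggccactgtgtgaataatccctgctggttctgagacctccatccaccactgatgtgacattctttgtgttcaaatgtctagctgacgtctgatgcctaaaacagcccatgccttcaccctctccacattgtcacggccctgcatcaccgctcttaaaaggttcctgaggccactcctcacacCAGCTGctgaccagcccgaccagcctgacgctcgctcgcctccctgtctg
Pln: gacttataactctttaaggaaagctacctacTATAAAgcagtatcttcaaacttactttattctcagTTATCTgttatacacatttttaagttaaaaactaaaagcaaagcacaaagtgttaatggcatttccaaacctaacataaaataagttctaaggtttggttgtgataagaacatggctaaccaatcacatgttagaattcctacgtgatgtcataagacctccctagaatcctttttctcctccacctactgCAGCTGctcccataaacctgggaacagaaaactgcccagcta

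Fewer of these promoters were open than of promoters at large. Strong promoter peaks were present at 12 and 11 of the 35 genes in GFP+ replicates 3 and 4, at 18 and 10 in Tomato+ replicates 6 and 8, at 10 in each GFP- library and at 12 in Tomato- replicate 7. Over all protein-coding genes the shares in the same order were 62.2%, 63.3%, 61.1%, 61.9%, 60.9%, 61.8% and 63.6%, whereas the sarcomere genes reached 28.6% to 34.3% in 6 libraries and 51.4% in Tomato+ replicate 6. With weaker peaks included, 25 and 18, 23 and 14, 19 and 18, and 20 of the genes had a peak, beside 71.7% and 70.6%, 69.8% and 69.9%, 68.9% and 70.2%, and 70.3% of all genes. The excess in Tomato+ replicate 6 is thus in strong peaks, since GFP+ replicate 3 listed more genes at any strength.

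Across the 7 libraries, 8 genes had a strong promoter peak in all of them (22.9% of the 35, against 53.2% of all genes), 11 in some and 16 in none (45.7%, against 28.3%). By role, 1 of 10 thin filament genes, 1 of 7 thick filament genes, 4 of 14 Z-disc, M-band and assembly genes and 2 of 4 calcium genes were open in every library. The remaining 6 thick filament genes had no strong peak in any library, as did 3 thin filament, 6 Z-disc, M-band and assembly and 1 calcium gene. Mypn (myopalladin, a Z-disc scaffold), Tcap (telethonin, which caps titin at the Z-disc) and Pln listed no promoter peak at any strength in any library.

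**Figure D1:**
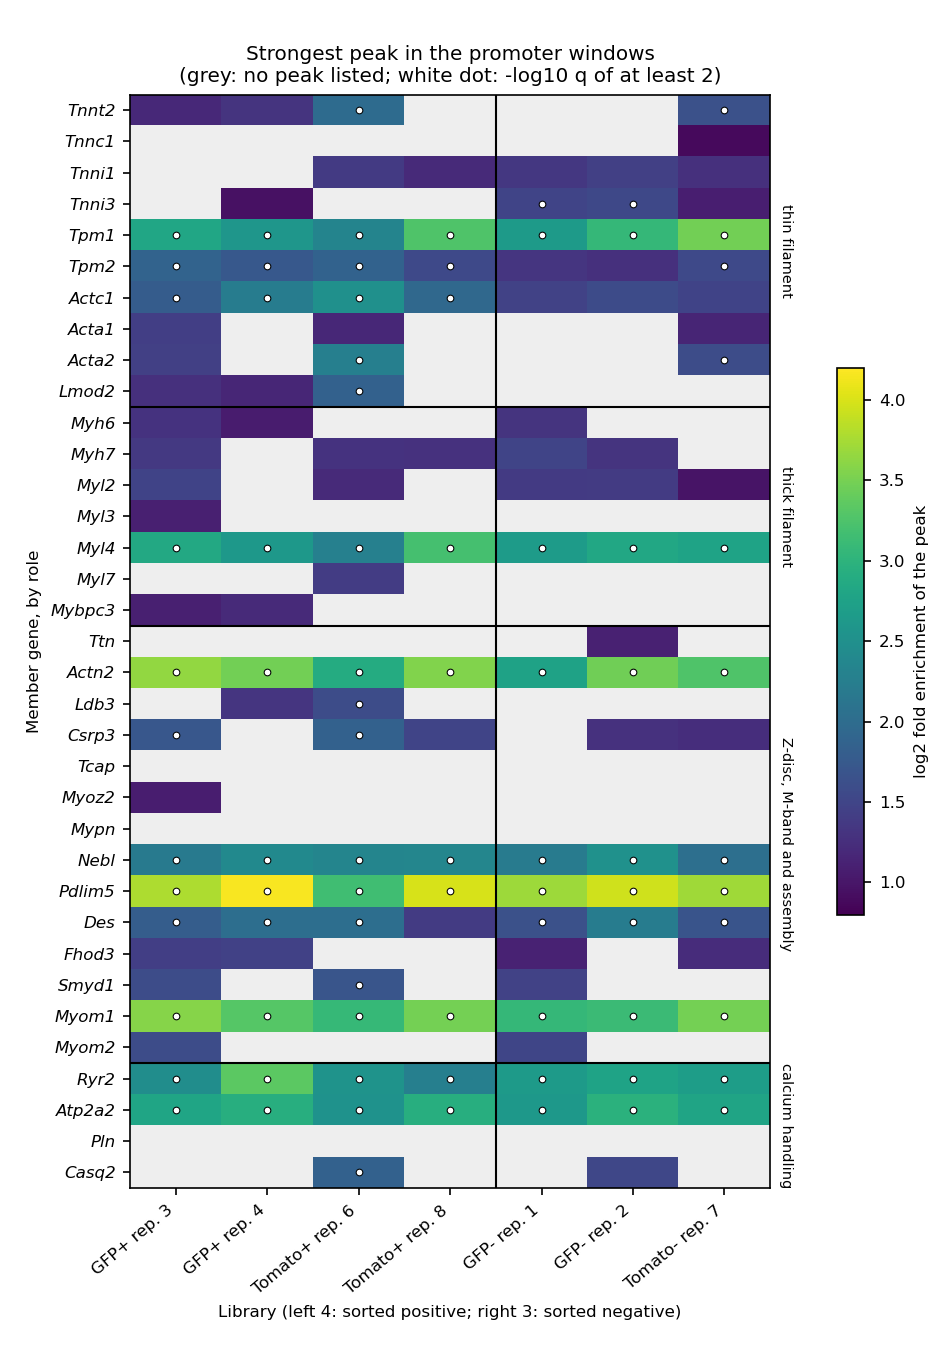
Strongest peak in the promoter windows of each of the 35 genes (rows, grouped by role) in each library (columns), colored by log2 fold enrichment, the ratio of tag pileup at the peak to the local background. Grey cells have no listed peak and white dots mark a -log10 q of at least 2; 8 rows carry dots in all 7 columns, and the column of Tomato+ replicate 6 carries 18 dots against 10 to 12 in the others.

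Among the thin filament genes, Actc1, the cardiac alpha-actin, was the one with strong promoter peaks in every sorted-positive library and in no sorted-negative one. GFP+ replicates 3 and 4 had fold enrichments of 3.47 and 4.67 there, and Tomato+ replicates 6 and 8 had 5.70 and 3.85, with summits at positions -165 to 38 bp from the start site. The negative libraries had weaker peaks, of 2.78 and 2.99 in the 2 GFP- libraries and of 2.81 in the Tomato- one. The sorted-positive values did not overlap the negative ones. Of all genes, 13 (0.0597%) had strong peaks in the 4 positive libraries and in none of the 3 negative ones. In the limma fit of promoters with a peak of any strength in all libraries, Tomato+ exceeded Tomato- by 0.82 ± 0.33 (SE) in log2 fold enrichment, with an unadjusted p of 0.0205 and an adjusted p of 0.999, and GFP+ exceeded GFP- by 0.38 ± 0.27, adjusted p of 0.998. Neither difference passed the test. The window overlaps that of the neighboring gene C130080G10Rik.

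Tpm2, beta-tropomyosin, came closest to that pattern. It had fold enrichments of 3.70 and 3.32 in GFP+, 3.64 and 2.92 in Tomato+, 2.50 and 2.41 in GFP- and 2.93 in Tomato-, and only the GFP- values missed the limit for a strong peak. Tomato+ replicate 8 and Tomato- replicate 7 were level, so the sorted-positive and negative libraries overlapped, although GFP+ lay above GFP-. Without Tomato- replicate 7, Tpm2 joined Actc1 as the other gene with strong peaks in every positive and no negative library.

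Tnnt2, cardiac troponin T, which ties the troponin complex to tropomyosin, is a widely used mark of cardiomyocytes. In GFP+ replicates 3 and 4 the fold enrichment was 2.28 and 2.48, Tomato+ replicate 6 had 3.99, and Tomato+ replicate 8 and both GFP- libraries listed no peak. Tomato- replicate 7 had 2.2 near the start shown above and a strong peak of 3.11 at another curated start, position 135836989. Thus the 2 Tomato+ libraries lay at the top and at the bottom of the range, and both GFP+ libraries listed a weak peak where neither GFP- library listed any.

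Acta2, smooth muscle alpha-actin, which early cardiomyocytes also express, also differed between the Tomato+ libraries. It had a fold enrichment of 2.71 in GFP+ replicate 3, 4.82 in Tomato+ replicate 6 and 3.02 in Tomato- replicate 7, and no peak in the other 4 libraries. Lmod2, leiomodin, which lengthens thin filaments, had 2.41 and 2.25 in GFP+ and 3.61 in Tomato+ replicate 6, the single strong one, and no peak in Tomato+ replicate 8 or the negative libraries. In both genes the highest value was that of Tomato+ replicate 6 and its replicate listed no peak.

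Tnni3, cardiac troponin I, the inhibitory subunit, went the other way. It had strong peaks in GFP- replicates 1 and 2 with fold enrichments of 2.81 and 2.89, weaker ones of 1.94 in GFP+ replicate 4 and 2.12 in Tomato- replicate 7, and none in the other 3 libraries. The GFP- summits lay at -1005 and -979 bp from the curated start site, at the far edge of the window. Tnni1, the slow skeletal troponin I that the embryonic heart uses, had weak peaks of 2.3 to 2.72 in 5 libraries, not all at the same start site, and none in GFP+. Tnnc1, troponin C, had 1 weak peak of 1.85, in Tomato- replicate 7, at -994 bp from its start and in a window shared with Nisch, and Acta1, skeletal alpha-actin, had weak peaks of 2.21 to 2.69 in 3 libraries.

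Tpm1, alpha-tropomyosin, was open in every library, and more so at its internal start site than at its upstream one. At the internal start the fold enrichment was 7.04 and 5.99 in GFP+, 5.05 and 9.58 in Tomato+, 6.30 and 8.35 in GFP- and 11.1 in Tomato-. At the upstream curated start it was 4.03 and 3.07, 4.65 and 3.74, 3.43 and 3.11, and 3.38 in the same order. The internal peak exceeded the upstream one in each of the 7 libraries, least in Tomato+ replicate 6. At the internal start the single Tomato- library was the highest, and the other groups overlapped. At the upstream start both Tomato+ values lay above those of GFP- and Tomato- and overlapped those of GFP+. Tropomyosin transcripts from the internal start are known from non-muscle cells.

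The thick filament genes had the fewest open promoters. Myh6, the alpha-myosin heavy chain typical of the atrium, had weak peaks of 2.47 and 2.08 in GFP+ and 2.48 in GFP- replicate 1. The Tomato+, GFP- replicate 2 and Tomato- libraries listed none. In GFP+ replicate 4 the peak of 2.08 lay at a predicted start, position 54968017, in a window shared with Mhrt. That library listed no peak at the curated Myh6 start. Myh7, the beta-myosin heavy chain typical of the ventricle, had weak peaks of 2.57 in GFP+ replicate 3, 2.45 and 2.43 in Tomato+, and 2.81 and 2.49 in GFP-, and none in GFP+ replicate 4 or Tomato-. For Myl7, the atrial regulatory light chain, the single peak was one of 2.64 in Tomato+ replicate 6, 18 bp downstream of the start. Libraries with and without a peak were found within the same population for all 3 genes, and none of these peaks was strong.

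Among the remaining light chains, Myl2, the ventricular regulatory chain, had weak peaks of 1.97 to 2.81 in 5 libraries, and Myl3, the ventricular essential chain, had 1 of 2.14 in GFP+ replicate 3. Mybpc3, the cardiac myosin-binding protein C, had weak peaks of 2.15 and 2.31 in the 2 GFP+ libraries and none elsewhere. These 2 peaks did not overlap, with summits at -28 and -278 bp from the curated start. Myl4, the atrial essential light chain, counted as open in every library, with 7.21 and 6.13 in GFP+, 4.84 and 9.19 in Tomato+, 6.35 and 7.18 in GFP- and 6.83 in Tomato-. That peak, however, lay in a window shared with Cdc27, a subunit of the anaphase-promoting complex. At the curated Myl4 start farther inside the gene, position 104576985, the fold enrichment was 2.13 and 2.84 in GFP+, 4.06 in Tomato+ replicate 6 and 2.33 in GFP- replicate 2, strong in Tomato+ replicate 6 alone, and no peak was listed in the other 3 libraries.

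Of the Z-disc, M-band and assembly genes, Actn2, the alpha-actinin that cross-links actin at the Z-disc, had 12.6 and 11.1 in GFP+, 7.45 and 11.7 in Tomato+, 6.76 and 11 in GFP- and 9.57 in Tomato-. Pdlim5, a PDZ and LIM protein that also occurs outside muscle, had the highest values of all 35 genes, 13.8 and 17.9, 8.92 and 15.9, 13.0 and 15.5, and 13.1. Nebl (nebulette) had 4.61 and 5.31, 5.07 and 5.13, 4.65 and 5.72, and 4.11. For Actn2 and Pdlim5, Tomato+ replicate 6 lay well below replicate 8, and the Tomato+ values spanned some of those of every other group. GFP+ lay just above GFP- for Actn2 in fold enrichment. On a log2 scale centred on each library's median, however, GFP- replicate 2, at 0.80, was above GFP+ replicate 4, at 0.77. Tomato- lay below all other libraries for Nebl. At an internal curated Nebl start, position 17670165, the 2 GFP- libraries had strong peaks of 4.03 and 4.07, the 2 GFP+ libraries weak ones of 2.71 and 2.50, and the other 3 libraries none.

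Des, desmin, the intermediate filament that links Z-discs, had 3.49 and 4.08 in GFP+, 4.06 and 2.63 in Tomato+, 3.13 and 4.69 in GFP- and 3.22 in Tomato-, strong in all libraries but Tomato+ replicate 8. Csrp3, muscle LIM protein, had strong peaks of 3.31 in GFP+ replicate 3 and 3.61 in Tomato+ replicate 6, weaker ones of 2.83 in Tomato+ replicate 8, 2.44 in GFP- replicate 2 and 2.37 in Tomato- replicate 7, and none in the other 2. For Des each positive group overlapped the negative group of its line, and for Csrp3 Tomato+ lay above Tomato-.

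Ldb3, the Z-disc protein also called ZASP or cypher, had 3.01 in Tomato+ replicate 6 and a weak peak of 2.52 in GFP+ replicate 4. Smyd1, a muscle methyltransferase needed for myosin assembly, had 3.26 in Tomato+ replicate 6 and weak peaks of 3.01 in GFP+ replicate 3 and 2.77 in GFP- replicate 1. In both, the strong peak was in Tomato+ replicate 6 alone and Tomato+ replicate 8 listed none.

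Ttn, titin, the molecular spring that spans the sarcomere from Z-disc to M-band, had 1 weak peak of 2.17, in GFP- replicate 2. Myoz2, a calcineurin-binding Z-disc protein, had 1 of 2.11 in GFP+ replicate 3, Myom2, an M-band protein, had 2.84 and 3.01 in 2 libraries, and Fhod3, a formin of cardiac actin assembly, had 2.18 to 2.75 in 4. A longer Fhod3 region just past the promoter window, centered 972 bp from the curated start and overlapping an exon (chr18:24708841-24710349), had strong peaks in all 7 libraries, with 5.60 and 6.0 in GFP+, 4.11 and 5.11 in Tomato+, 4.08 and 7.17 in GFP- and 6.41 in Tomato-, and it was counted as distal. Myom1, the M-band cross-linker, had 11.9 and 9.84, 8.45 and 11.2, 8.34 and 8.72, and 11.3, but at -746 to -736 bp from a predicted start and in a window shared with Myl12a, a non-muscle myosin light chain. No peak was listed at the curated Myom1 start.

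Of the calcium genes, Ryr2 was open throughout, with 5.50 and 10.1 in GFP+, 5.83 and 4.81 in Tomato+, 6.30 and 6.84 in GFP- and 6.44 in Tomato-. Atp2a2, the sarcoplasmic reticulum calcium pump, had 6.94 and 7.66, 5.79 and 7.65, 6.13 and 7.88, and 6.87. Casq2, calsequestrin, the calcium store of the reticulum, had 3.61 in Tomato+ replicate 6 and a weak peak of 2.89 in GFP- replicate 2, at -427 and -588 bp from the start, and none in the other 5. Atp2a2 serves calcium storage in many cell types, and its values, from 5.79 to 7.88, ranged less widely than those of Ryr2.

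In Tomato+ replicate 6, 8 genes had strong promoter peaks that Tomato+ replicate 8 lacked: Acta2, Casq2, Csrp3, Des, Ldb3, Lmod2, Smyd1 and Tnnt2. They are 22.9% of the 35 genes, against 3.53% of all genes. The converse, a strong peak in replicate 8 and not in replicate 6, held for 0 of the 35 and for 4.34% of all genes. Casq2, Ldb3, Lmod2 and Smyd1 had strong peaks in Tomato+ replicate 6 and in no other library, a pattern of 0.703% of all genes. Their -log10 q there was 2.46, 2.56, 2.46 and 2.13, just above the limit, and that of Csrp3 was 2.46. Without Tomato+ replicate 6, 20 rather than 16 genes had no strong promoter peak, and the other 6 libraries ranged from 10 to 12 genes. Tomato+ replicate 6 had the fewest tags. Whether the cells sorted, the run or another step lies behind this was not tested, and fewer cells of a type and less open chromatin per cell cannot be told apart in sorted bulk libraries.

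A list of 44 other genes of the contractile and calcium apparatus, which holds skeletal as well as cardiac genes, is given for comparison. Strong promoter peaks were present at 16 and 13 of them in GFP+, 17 and 12 in Tomato+, 10 and 12 in GFP- and 16 in Tomato-. Over all genes the shares were 60.9% to 63.6%. Tomato+ replicate 6, at 17, thus lay near GFP+ replicate 3 and Tomato-, at 16 each, on this list. Mylk3, the cardiac myosin light chain kinase, had 9.36 in Tomato+ replicate 6 against 2.83 in replicate 8, 3.95 and 2.91 in GFP+, 3.02 and 2.44 in GFP- and 3.45 in Tomato-. Myl1, an embryonic and fast-muscle essential light chain, had 4.07 and 3.57 in Tomato+ and 3.02 in Tomato- and no peak in the 4 libraries of the Hoxb1-GFP line. Other genes of the list went the other way from Mylk3. Sln had its only peak in Tomato+ replicate 8, a strong one of 4.25, and Asph had 8.68 in replicate 6 against 13.9 in replicate 8. Mylk3, Myl1, Sln and Asph were picked out after their values were seen.

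**Figure D2:**
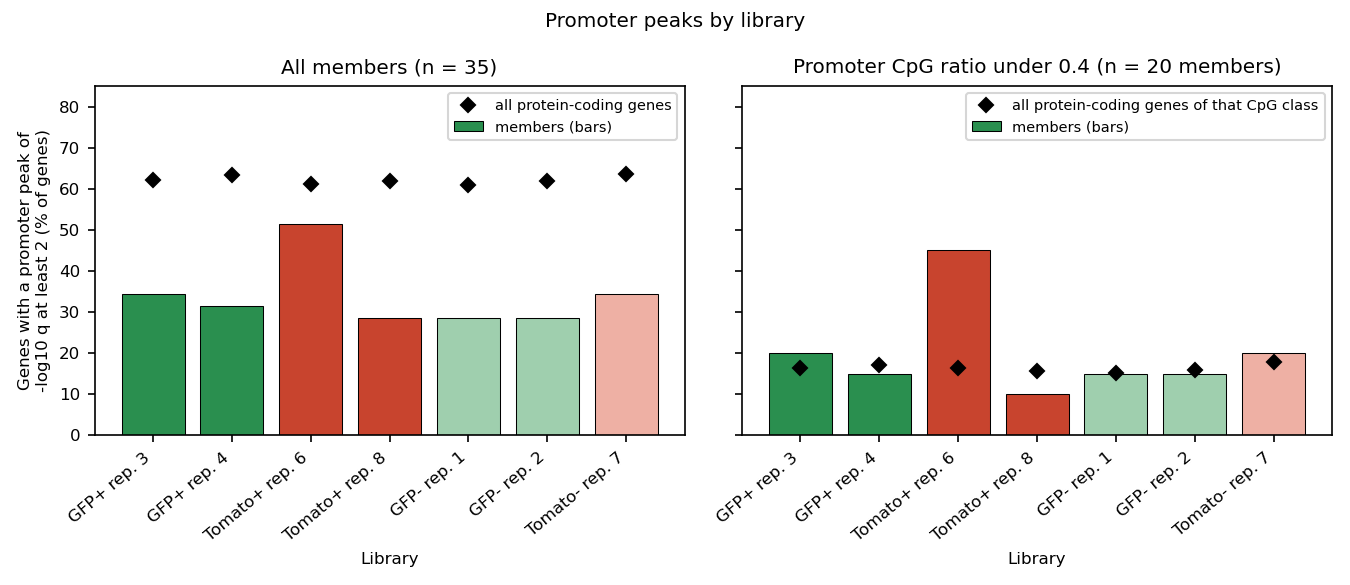
Share of genes with a strong promoter peak (-log10 q of at least 2, in percent) in each library, for the 35 genes at left and for the 20 of them with a promoter CpG ratio under 0.4 at right; bars are these genes and diamonds are all protein-coding genes, at right those of the same CpG class. At left all bars lie below the diamonds, and at right the bar of Tomato+ replicate 6 stands for 9 of 20 genes against 2 to 4 in the other libraries.

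Promoter sequences were listed for 31 of the 35 genes, 41 start sites in all. Atp2a2, Fhod3, Myom2 and Tcap had none. The CpG ratio, the observed number of CpG dinucleotides over the number that the C and G content would give, is high in the CpG islands of widely used promoters. Taking each gene's highest start site, the median ratio was 0.71 for the 7 genes open in every library, 0.27 for the 11 open in some and 0.24 for the 13 open in none, and the medians over all genes of the same classes were 0.81, 0.43 and 0.16. Of the 5 genes at 0.6 or more (Actn2, Myl4, Nebl, Pdlim5 and Tpm1) all 5 were open in every library, as were 87.0% of all 8896 such genes. Of the 20 genes under 0.4, 1 was open in every library and 10 in none, and over all 6464 such genes the shares were 8.57% and 69.4%.

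Within the class under 0.4, strong peaks were present at 4 and 3 of the 20 genes in GFP+, 9 and 2 in Tomato+, 3 and 3 in GFP- and 4 in Tomato-, whereas the shares of all genes of this class lay between 15.2% and 17.8%. In 6 libraries the sarcomere genes were thus near the share of other promoters of like CpG content, and in Tomato+ replicate 6 they were above it. The 1 gene of this class that was open in every library is Myom1, whose listed sequence is that of the curated start without a peak. Ryr2, at 0.57 with 18 CpGs in the sequence printed above, and Tpm2, at 0.55, lay between the classes, as did Mypn, at 0.59, which had no peak. Actc1, with 7 CpGs and a ratio of 0.26, Tnnt2, with 5 and 0.23, and Pln, with 1 and 0.11, were CpG-poor.

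**Figure D3:**
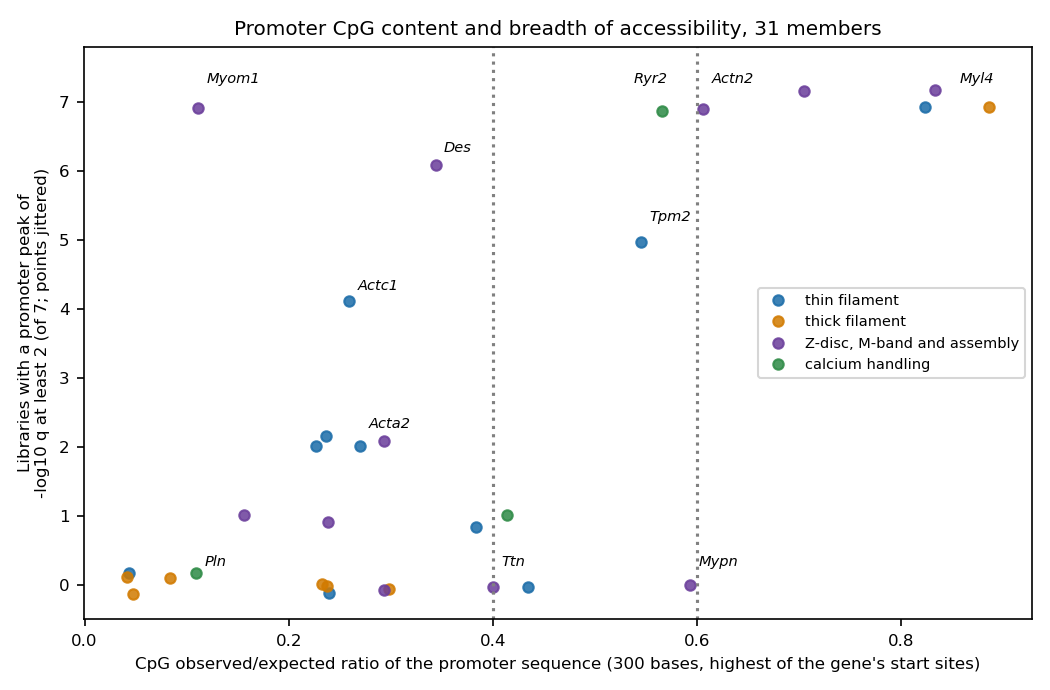
Promoter CpG ratio (horizontal axis) against the number of libraries with a strong promoter peak (vertical axis, of 7, jittered) for the 31 genes with a listed promoter sequence, colored by role. Points at ratios of 0.6 or more all lie at 7 libraries, points under 0.4 lie mostly at 0 to 2, and Myom1, Des and Actc1 are the CpG-poor genes at 4 libraries or more.

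Short motifs were searched on both strands, and TATAAA on the gene's strand only. The CArG box bound by serum response factor was found in 8 of the 41 promoters (19.5%, against 1.52% of all 21263), at Acta1, Actc1, Ldb3 with 2 start sites, Myl3, Myl7, Myom1 and Nebl. The MEF2 box was in 4 (9.76%, against 2.74%), GGAATG, the core recognized by TEAD factors, in 12 (29.3%, against 13.6%) and CAGCTG, an E-box, in 13 (31.7%, against 15.6%). The GATA motif AGATAA was found in 6 promoters (14.6%, against 9.65%). For the NKX motif, TNAAGTG, the count was 3 (7.32%, against 10.8%). TATAAA, at any position in the sequence, was found in 4 promoters (9.76%, against 8.26%). No match overlapped another in the same promoter sequence. The overlapping promoters of the 2 Ldb3 start sites hold 1 and the same CArG box, and those of the 2 Tnni1 start sites 1 and the same CAGCTG. Counted by gene, the CArG box was in 7 of 31 (22.6%, against 1.76% of all genes) and CAGCTG in 11 (35.5%, against 17.4%). A match is a description of the letters and not a bound site.

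Positions are counted from 0 at the start base, with negative values upstream. In the sequences printed above, the capitals of Actc1 are a CArG box at -47 to -38 and TATAAA at 33. Those of Tnnt2 are CAGCTG at -223 and -157, the GATA motif on the other strand at -166 and the TEAD motif on the other strand at -27. The capitals of Acta2 are CAGCTG at -182 and GGAATG at -146, and those of Lmod2 are CAGCTG at 0. Pln holds TATAAA at -219, the GATA motif on the other strand at -183 and CAGCTG at 8, and had no peak, while Ryr2 holds no match and was open in every library. Of the 7 genes with a CArG box, Acta1, Myl3 and Myl7 had no strong promoter peak in any library, and Ldb3 had one in Tomato+ replicate 6 alone. The boxes of Myom1 and Nebl lie at start sites 71019557 and 17462856, where no library listed a peak, and the open windows of these genes are at other start sites.

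To ask whether open promoters differed in strength between populations, log2 fold enrichments, centred on each library's median, were compared with limma over the 11589 promoters with a strong peak in all 7 libraries. Of the 35 genes, 8 entered this comparison, a set that leaves out every gene closed in any library. Between GFP+ and Tomato+, limma called 0 promoters of 11589 (0%) at an adjusted p under 0.05, and 710 had an unadjusted p under 0.05. Between GFP+ and GFP- it called 0 (0%, with 514 at an unadjusted p under 0.05), and between Tomato+ and the lone Tomato- library, which was assumed to vary like the other groups, 0 (0%, with 498). None of the 8 genes had an unadjusted p under 0.05 in any of the 3 comparisons.

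The largest excess in GFP+ over Tomato+ was that of Ryr2, 0.43 ± 0.26 (SE, adjusted p = 0.819), followed by Pdlim5 at 0.34 ± 0.22 (adjusted p = 0.838), Actn2 at 0.28 ± 0.22 (adjusted p = 0.894) and Myom1 at 0.09 ± 0.20 (adjusted p = 0.972). On the side of Tomato+ were Tpm1 at -0.16 ± 0.24, Nebl at -0.11 ± 0.22 and Myl4 at -0.07 ± 0.24, and Atp2a2 lay at 0.07 ± 0.21. Their median was 0.08, against 0.00 for all promoters tested, whose SD was 0.24. The Ryr2 difference came from GFP+ replicate 4, at 0.64 on the centred scale, while GFP+ replicate 3 was at -0.27 and Tomato+ replicates 6 and 8 at -0.02 and -0.48, so the groups overlapped. Tpm1 had the widest difference in any comparison, -0.59 ± 0.29 in Tomato+ against Tomato- (unadjusted p = 0.0534, adjusted p = 0.999).

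**Figure D4:**
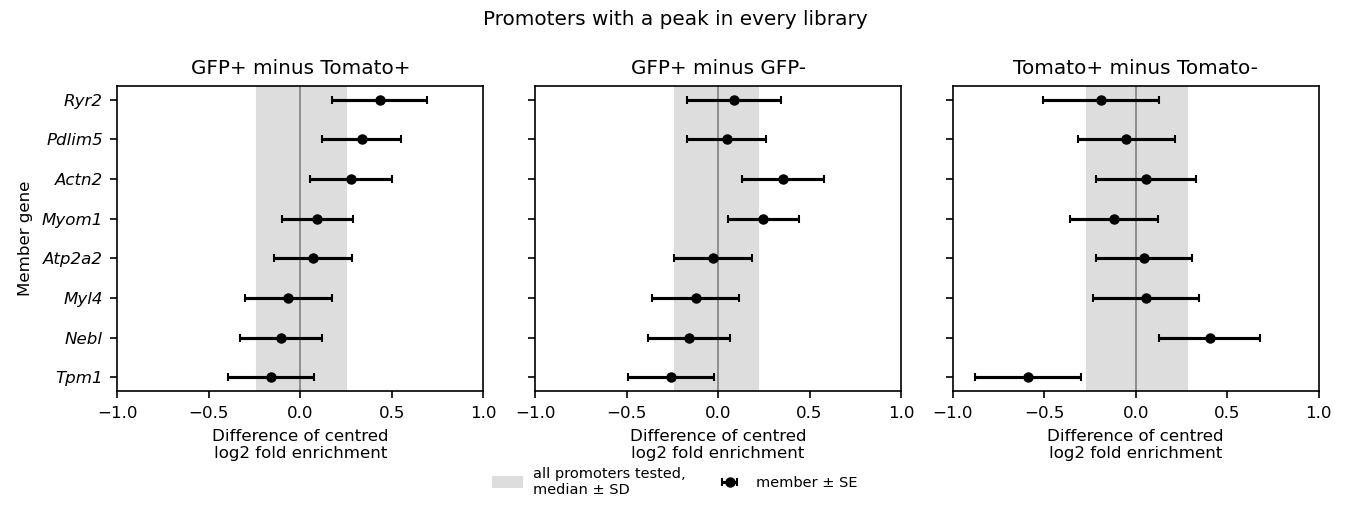
Differences of centred log2 fold enrichment (horizontal axes) in the 3 comparisons for the 8 genes with a strong promoter peak in all 7 libraries; points are limma estimates, bars their SE, and the grey band is the median ± SD of all 11589 promoters. Ryr2, Pdlim5 and Actn2 lie to the right of the band in GFP+ minus Tomato+, Actn2 and Myom1 to the right and Tpm1 to the left in GFP+ minus GFP-, and Nebl to the right and Tpm1 to the left in Tomato+ minus Tomato-, and none passed the test.

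Distal regions were then sought around the 35 genes. There were 424 of the 128026 near all protein-coding genes, which is 10.5 per 100 kb searched against 8.93. They lay in introns of the genes (192), exons (54), upstream (85) and downstream (93), and for 251 the nearest start site belonged to one of the 35 genes. Of the 424, 320 (75.5%) were strong in a single library, near the 73% of all distal regions, and 160 (37.7%, against 34.4%) were strong in a single library with a weaker peak in another. Strong peaks were present at 98 and 116 regions in GFP+, 116 and 79 in Tomato+, 89 and 97 in GFP- and 98 in Tomato-, which is 23.1% and 27.4%, 27.4% and 18.6%, 21.0% and 22.9%, and 23.1%. The shares over all regions were 26.1% and 25.8%, 26.2% and 22.2%, 22.6% and 24.9%, and 28.9%. Tomato+ replicate 6 shared the highest count at these genes with GFP+ replicate 4. Tomato+ replicate 8 was the lowest, and it was also the lowest over all regions.

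Fhod3 had the most regions, 48 over its 465 kb searched, followed by Nebl with 31, Ryr2 with 24 and Casq2 and Ldb3 with 21 each. Myoz2 had 1, Actc1 and Acta2 had 2 each and Pln had 3. The counts follow in part the length searched, which ran from 41.1 kb at Tcap to 594 kb at Ryr2. Ttn, with 319 kb searched, had 12.

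Regions strong in all 7 libraries numbered 14 at these genes (3.30%, against 4.96% of all distal regions). The 6 with the highest mean fold enrichment in the sorted-positive libraries were 2 regions 18429 and 19247 bp upstream of Nebl (chr2:17753255-17753501 and chr2:17754083-17754309, means of 13.3 and 12.2), 1 beyond its 3′ end (chr2:17324050-17324366, 11.2), 1 in an intron of Ldb3 (chr14:34579816-34580134, 10.5), 1 downstream of Myl3 and nearest to Prss42 (chr9:110781251-110782189, 7.81) and 1 downstream of Myom2 (chr8:15141998-15142554, 7.36). By the repeat masking of the RefSeq genome, 81.4%, 100% and 100% of the bases of the 3 Nebl regions, 100% of the Ldb3 region, 2.56% of the Myl3 region and 68.0% of the Myom2 region were repeats. Of all 6349 regions strong in every library, 61.1% were repeat over at least 50% of their length, against 18.1% of all distal regions, and at the 35 genes the counts were 6 of 14 and 46 of 424. The part of copied sequence in these peaks was not tested.

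Regions strong in both libraries of one sorted population, with no peak of any strength in the other, were few. There were 4 of the GFP+ kind (0.943%, against 0.484% of all regions) and 3 of the Tomato+ kind (0.708%, against 0.371%). No region at these genes was strong in the 4 sorted-positive libraries and in none of the negative ones (0.0765% of all regions). In the population with the strong peaks the fold enrichments of these 7 regions ran from 3.02 to 4.52, and all 7 had a peak in at least 1 negative library, which was strong in 5 of them.

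Of the GFP+ kind, the region at -9378 bp from the Atp2a2 start (chr5:122511487-122511719, nearest to 1700040P09Rik) had 3.78 and 3.06 in GFP+ and a weak peak of 2.56 in GFP- replicate 2. An intronic region of Nebl (chr2:17633947-17634163) had 4.52 and 3.75 in GFP+ and strong peaks of 3.52 and 3.26 in GFP-, and a region 16314 bp upstream of Nebl (chr2:17751178-17751349) had 3.31 and 3.19 in GFP+, a strong peak of 3.07 in GFP- replicate 1 and weak ones of 2.63 in GFP- replicate 2 and 2.02 in Tomato-. The fourth overlapped an exon of Myom2 (chr8:15080866-15081225), with 3.31 and 3.11 in GFP+ and 3.33 in GFP- replicate 1. GFP+ and GFP- libraries overlapped in the Myom2 region, and both Nebl regions consist of repeats over 100% of their length while the Atp2a2 and Myom2 regions hold 0%.

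Of the Tomato+ kind, a region in an intron of Myl4, 1138 bp downstream of its nearest start (chr11:104578214-104578624), had 3.36 and 3.39 in Tomato+ replicates 6 and 8 and 1 weak peak of 2.16, in GFP- replicate 2. It is the one distal region at these genes where both Tomato+ libraries had strong peaks of like height and neither GFP+ nor Tomato- had any. A region 4164 bp upstream of Myl3 (chr9:110759396-110759632) had 3.16 and 3.05 in Tomato+, 2.36 and 3.69 in GFP- and 2.67 in Tomato-. A region downstream of Tnni3 (chr7:4508690-4508919), inside the neighboring skeletal troponin gene Tnnt1, had 3.21 and 3.02 in Tomato+, 2.58 in GFP- replicate 2 and 2.69 in Tomato-. In the Myl3 region the GFP- values spanned those of Tomato+.

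The centers of the Myl4 and Atp2a2 regions are shown as the clearest of each kind, 100 bases on either side of the highest summit on the plus strand of GRCm38 (chr11:104578375-104578575 and chr5:122511515-122511715), and neither window holds a match to the searched motifs.
Myl4 intronic region: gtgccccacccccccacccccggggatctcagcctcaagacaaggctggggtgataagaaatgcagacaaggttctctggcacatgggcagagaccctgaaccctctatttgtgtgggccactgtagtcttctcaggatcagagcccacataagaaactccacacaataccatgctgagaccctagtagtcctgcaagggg
Atp2a2 upstream region: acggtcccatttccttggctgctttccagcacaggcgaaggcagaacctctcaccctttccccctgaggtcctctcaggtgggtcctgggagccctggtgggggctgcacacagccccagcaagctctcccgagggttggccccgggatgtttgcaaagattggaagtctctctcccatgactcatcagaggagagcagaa

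**Figure D5:**
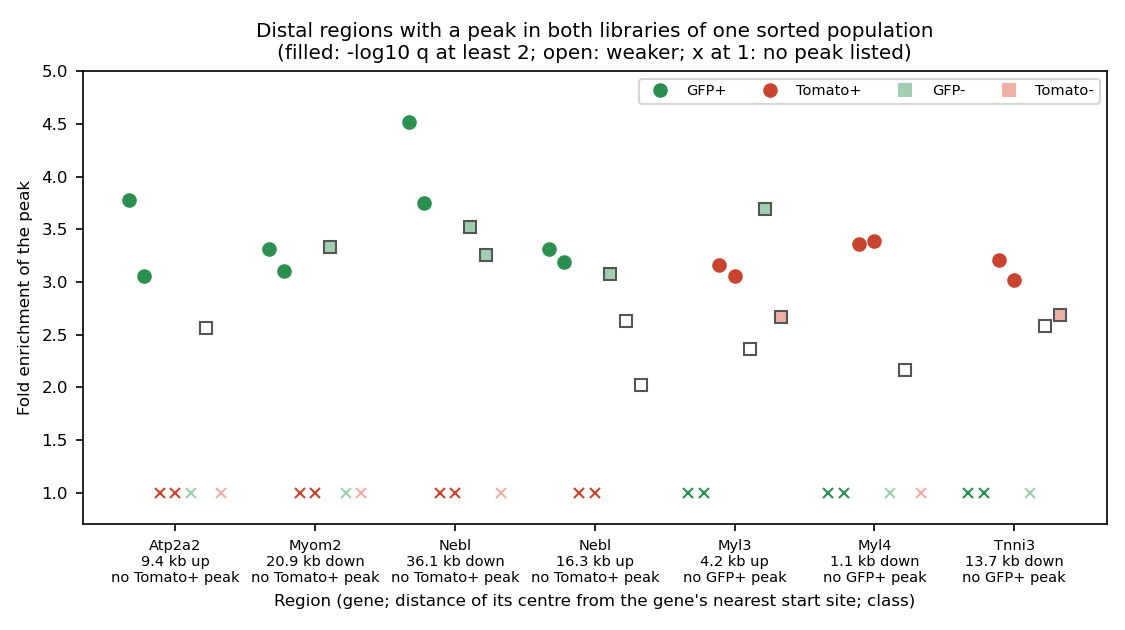
Fold enrichment (vertical axis) of the 7 distal regions at these genes with strong peaks in both libraries of one sorted population and no peak in the other; colors are the 4 groups, circles sorted-positive and squares sorted-negative libraries, filled symbols strong peaks, open ones weaker peaks and crosses at 1 no listed peak. The Tomato+ circles of the Myl4 region lie at 3.36 and 3.39 above a single open square at 2.16, whereas squares reach or pass the circles at Myom2 and Myl3.

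With limma, 11754 distal regions with a peak in all 7 libraries were compared, 28 of them at these genes. Between GFP+ and Tomato+ 29 regions were called (0.247%, 13 higher and 16 lower in GFP+), between GFP+ and GFP- 2 (0.017%, both lower) and between Tomato+ and Tomato- 0 (0%, with 497 at an unadjusted p under 0.05). None of the 28 was among them, and 2, 4 and 1 of the 28 had an unadjusted p under 0.05. Over all 11754 regions, 1059 had such a p between GFP+ and Tomato+, 807 between GFP+ and GFP- and 497 between Tomato+ and Tomato-. Whether the share at these genes differed from that of all regions was not tested. With depth-scaled summit pileup in place of fold enrichment, 65 regions were called between GFP+ and Tomato+, 49 of them higher in GFP+, and again none at these genes. Leaving out 1 library moved the 29 calls to between 5, without GFP- replicate 1, and 77, without Tomato+ replicate 6.

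The regions with an unadjusted p under 0.05 are given as values. An intronic region of Smyd1 (chr6:71227095-71227580) was 0.78 ± 0.32 (SE) higher in GFP+ than in Tomato+ on the log2 scale (adjusted p = 0.470), with fold enrichments of 6.2 and 4.26 in GFP+ and 3.70 and 2.55 in Tomato+, which did not overlap. An intronic region of Tnni1, 1265 bp from its nearest start (chr1:135800517-135801035), was 0.60 ± 0.29 higher in GFP+ than in GFP- (adjusted p = 0.722), with 3.59 and 3.2 against 2.21 and 2.15, and had 5.95 in Tomato+ replicate 6, 2.63 in replicate 8 and 2.45 in Tomato-. A region 3631 bp upstream of Myl2 (chr5:122088880-122089307) was 0.81 ± 0.34 higher in GFP+ than in GFP- (adjusted p = 0.683), with 6.2 and 3.19 against 2.0 and 3.09, and had 6.66 and 3.84 in Tomato+ and 5.26 in Tomato-. At both the Tnni1 and the Myl2 region Tomato+ replicate 6 was above its replicate, while GFP+ and GFP- did not overlap. At Myl2, GFP+ replicate 4 and GFP- replicate 2 were nearly level, at -0.415 and -0.424 on the centred log2 scale. All these regions were picked by p-values from the same comparisons, so the lack of overlap, also at Smyd1, lends them no further weight. How many of all regions tested show it was not counted.

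The Ldb3 region of repeats was -0.51 ± 0.21 in GFP+ against GFP- (adjusted p = 0.669), and the region downstream of Myom2 was 0.53 ± 0.25 in GFP+ against Tomato+ (adjusted p = 0.538), 0.55 ± 0.25 in GFP+ against GFP- (adjusted p = 0.713) and -0.72 ± 0.30 in Tomato+ against Tomato- (adjusted p = 0.998). Without Tomato+ replicate 6, which had no peak there, an intronic region of Pdlim5 (chr3:142318201-142318513) entered the fit and was called lower in GFP+ than in GFP- by limma, at -1.19 ± 0.27 (adjusted p = 0.038). Its fold enrichments were 4.82 and 2.75 in GFP+, 7.30 and 9.23 in GFP-, 6.23 in Tomato+ replicate 8 and 5.18 in Tomato-. The GFP+ values lay below all others. That fit was 1 of the alternatives, in which 30 rather than 2 regions were called in all.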

How the data were processed

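ATAC-seq was performed on 7 libraries of sorted SHF cells. The authors aligned paired reads with SNAP to GRCm38, removed duplicates, improper pairs and blacklisted regions, and called peaks in each library without pooling. The submitters' processing notes name MACS2 2.1.1. The header of the Tomato+ replicate 6 list, the only one present, names release 2.1.0.20150731 without a control library, a p-value limit of 0.01, tags shifted by 37 bp and extended to 73 bp, which can move summits from the cut sites. The authors deposited the pileup, a coverage signal that grows with depth, the fold enrichment, a ratio of pileup to local background, and -log10 p-values and q-values, which also grow with depth. Read counts were not used here, so the authors' test with DiffBind was not repeated. Libraries held 52.3 to 93.1 M tags, computed from the lowest background rate. No interval is given for a fold enrichment, whose error is the spread between libraries.

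Summits of a peak were collapsed to that with the smallest p. A peak counted if it shared at least 1 bp with a window. Where several start sites or peaks were present, the highest fold enrichment was taken. Groups were taken from the labels, and the replicate number of a library is its adapter number. The study speaks of biological and technical replicates without saying which these are or whether they came from separate dissections, so p-values measure only the spread between these libraries. Differences of log2 fold enrichment were tested with limma 3.58.1 (R 4.3.3) with all groups in 1 fit, an intensity trend, empirical Bayes variances and Benjamini-Hochberg adjustment over all features. The procedure was run on simulated data with planted changes, and the size of difference it could detect is not given here. Distal regions were merged peaks with a -log10 q of at least 2 in any library. RefSeq sequences were read with pysam 0.24.0, and 200 of 200 sampled promoter sequences matched the genome. Python 3.11.15, pandas 2.3.3, numpy 2.4.6 and matplotlib 3.10.9 were used.

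The 35 genes and the lists of other muscle genes and cell type markers were chosen with earlier results of these data known. All 35 were accounted for, and values in every library were given for genes with a strong promoter peak in some but not all libraries, those called by limma, the 4 with the largest GFP+ minus Tomato+ difference in each direction, and Tnnt2, Myh6, Myh7, Myl7, Actc1, Acta2, Ttn, Ryr2, Atp2a2 and Pln. Distal regions were named if strong in both libraries of 1 sorted population and absent from the other, or among the 6 with the highest mean. Regions with an unadjusted p under 0.05 and the Pdlim5 region were named after their values were seen. Alternatives were other limits on q, windows, reaches, overlaps and scalings, and leaving out each library.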

Additional observations from a re-analysis of the deposited data

Results flagged for a closer look

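For 11 promoters with a peak in every library and 5 distal regions with an unadjusted p under 0.05, the difference between positive and negative cells was compared between the 2 lines. At 2 of them all libraries of one line moved one way and all libraries of the other line the opposite way. The Tomato- group is a single library, and the difference between the lines was not tested. The 5 distal regions were picked by p-values from these same libraries, so the flag lends them no further weight. How many of all promoters or regions show such a pattern was not counted. At the region downstream of Myom2, GFP+ exceeded GFP- by 0.55 and Tomato+ was below Tomato- (-0.72), a gap of 1.27 on the centred log2 scale, and 68.0% of its bases are repeats. At the Myom1 window, where the peak lies beside Myl12a, the values were 0.25 and -0.12, a gap of 0.37. There Tomato+ replicate 8, at 0.741 on the centred scale, was level with Tomato- replicate 7, at 0.747.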

How the results depend on the processing

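Of 225 repeats of the counts under an alternative, 184 stayed within 1.5 times the value reported and 41 did not. The 184 include counts of 0 that stayed at 0 and counts that the alternative could not change. For distal limma calls, 7 moved and 3 stayed between GFP+ and Tomato+. Between GFP+ and GFP- 8 moved and 2 stayed, and between Tomato+ and Tomato- 2 moved and 7 stayed. At a -log10 q of at least 4, 5 rather than 8 genes had a promoter peak in Tomato+ replicate 6 and not in replicate 8. Those 5 were Acta2, Des and Tnnt2 of the 8, and Actc1 and Tpm2, where replicate 8 fell below the stricter limit. At that limit 0 rather than 1 gene had a peak in all positive and no negative library. Then 99 distal regions remained, and 0 regions were of the GFP+ and 0 of the Tomato+ kind. With the 30000 peaks of smallest p, the values were 5, 0, 70, 1 and 1, with 9 regions open in all libraries. A reach of 10 kb gave 9 regions open in all libraries, and 50 kb gave 27, of 662 regions. Among limma calls, the GFP+ against Tomato+ distal count was 65 with depth-scaled pileup. For GFP+ against GFP- it was 0 with pileup, 0 without centring and 0 with a strong peak required in all libraries, and for Tomato+ against Tomato- it was 1 with pileup. The promoter count for GFP+ against GFP- was 1 with peaks of any strength.

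Leaving out each library in turn gave 8 to 9 genes open in all libraries, 16 to 20 open in none, 1 to 2 open in all positive and no negative ones (2 without Tomato- replicate 7), 369 to 395 distal regions, and 14 to 16 open in all. The count of genes strong in Tomato+ replicate 6 and not in 8, which is 8, and its converse, 0, rest on these 2 libraries alone. Leaving out another library could not change them. Regions of the GFP+ kind ranged from 4 to 50 (50 without GFP+ replicate 3, 42 without GFP+ replicate 4, 8 without Tomato+ replicate 6) and those of the Tomato+ kind from 2 to 43 (43 without Tomato+ replicate 8, 27 without Tomato+ replicate 6, 9 without GFP+ replicate 3), where a population left with 1 library needs only that one. Distal limma calls ranged from 5 to 77, 0 to 30 and 0 to 5 in the 3 comparisons (77 and 30 without Tomato+ replicate 6, and 17, 10 and 5 without Tomato+ replicate 8). In the first, 7 and 9 regions were called without GFP+ replicates 3 and 4 and 5 and 9 without GFP- replicates 1 and 2, and in the second 1, 1 and 0 without GFP+ replicates 3 and 4 and GFP- replicate 1. Promoter calls ranged from 0 to 0, 0 to 0 and 0 to 1 (1 without Tomato+ replicate 6). Calls at the 35 genes were 0 throughout, apart from 0 to 1 for distal GFP+ against GFP-. Without Tomato- replicate 7 no Tomato+ against Tomato- comparison could be made. The causes were not tested. No paired analysis was possible because the groups share no replicate number.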
